A study of Homo sapiens with 40 samples.

Results

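ALL-SIL is a human T-cell acute lymphoblastic leukaemia (T-ALL) cell line, described here through 4 untreated polyadenylated RNA libraries set against 20 libraries of 5 other untreated T-ALL lines: LOUCY, KARPAS-45, HPB-ALL, TALL-1 and DND-41. The 4 ALL-SIL samples were taken by their label from the 24 untreated samples, and the series holds 40 samples in all. The untreated lines were sequenced to set splicing against the level of QKI, an RNA-binding splicing regulator. The remaining samples are Jurkat cells with QKI siRNA and samples labelled HPB-ALL with QKI shRNA, with their controls. ALL-SIL, LOUCY, TALL-1 and DND-41 were grown with 10% fetal calf serum, whereas HPB-ALL and KARPAS-45 received 20%, all in RPMI medium, and the labels give no treatment for any of the 6 lines. Each line stands for the cells of a single leukaemia, so a difference found here separates ALL-SIL from these 5 lines and not from T-ALL lines in general.

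As background, T-ALL arises from immature thymocytes in which a transcription factor that the thymus normally keeps silent is often switched on by a chromosomal rearrangement. In ALL-SIL a translocation is known to place the homeobox gene TLX1 beside the T-cell receptor delta locus, while HPB-ALL and DND-41 are known as lines driven by the related gene TLX3. ALL-SIL is also known to carry a fusion of NUP214, a nuclear pore protein, with the tyrosine kinase ABL1, which signals through STAT5 and the MAPK pathway.

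Total counts were between 45095894 and 57886749 in the ALL-SIL libraries and between 44093984 and 83952970 in the other libraries. Of 62754 genes in the table, 20348 passed the filter on low counts and were tested with edgeR's quasi-likelihood test and Benjamini-Hochberg adjustment at 0.05. Against the mean of the 5 other lines, 6870 genes were higher in ALL-SIL (33.8% of those tested) and 5176 were lower (25.4%), with a median log2 fold change over all tested genes of -0.01. The balance between higher and lower depended on the tool, with 6784 higher and 7247 lower by limma-voom and 6756 and 6594 by DESeq2. A smaller set of 1062 genes (5.22%) was higher in ALL-SIL than in each of the 5 lines tested singly, and 1078 (5.3%) were lower than in each. Counted the same way, KARPAS-45 had 3412 higher and 2933 lower, LOUCY 2159 and 1604, and HPB-ALL 1576 and 1116. TALL-1 had 1014 and 918, and DND-41 899 and 638. For ALL-SIL, the difference from the nearest line had a median log2 value of 0.94 among the genes higher than in each line and -1.04 among those lower. With no test, 858 genes (4.22%) had all 4 ALL-SIL libraries above all 20 others in CPM, counts scaled by TMM-adjusted library size, and 800 genes (3.93%) had them below. The single comparisons called 67.1% of tested genes in either direction against LOUCY, 74.3% against KARPAS-45, 62.5% against HPB-ALL, 53.9% against TALL-1 and 51.9% against DND-41. Across tested genes, the rank correlation between an ALL-SIL and another library was highest for DND-41, with a median Spearman rho of 0.89, and lowest for LOUCY, with 0.806, against 0.986 to 0.995 within ALL-SIL. Nothing in the labels says that the replicates of a line came from separate cultures, so p-values measure the spread between these libraries, which may be technical.

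A mean of logarithms can be moved by 1 silent line, so the sections that follow lean on the 5 single comparisons, and "higher than in each line" means that all 5 adjusted p-values passed. Of 1699 tested genes with no count in ALL-SIL, 1342 had none in at least 1 other line either, and 0 of these were called against the mean. On the other side, 1780 tested genes had counts in ALL-SIL and none in at least 1 other line, and 993 of these were called higher. Folds are ratios of mean CPM to the nearest line, and where ALL-SIL or the other line had no count they are lower bounds, set as if each such library had held 3 counts. Intervals and floors cover counting error only. Counts of list members stand beside 33.8% higher and 25.4% lower against the mean over all tested genes. Against each line, these shares were 5.22% and 5.3%.

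The homeobox gene TLX1 set ALL-SIL apart from every other line. Its level was 402, 406, 412 and 346 CPM in the 4 ALL-SIL libraries, against 0.331 CPM in LOUCY, 0.00714 in KARPAS-45, 0.00468 in HPB-ALL and no count in TALL-1 or DND-41. All ALL-SIL libraries lay above all 20 others, of which the highest had 0.45 CPM. Relative to LOUCY, the nearest line, the mean was 1180-fold higher (log2 fold change 10.19 ± 0.30 SE, edgeR adjusted p = 3.91e-16). TLX1 spans chr10:101130505-101137789 on the plus strand of GRCh38, and TLX1NB, a noncoding gene read from the opposite strand and overlapping it, was at 24.9 ± 4.97 CPM in ALL-SIL (SD, n = 4), against 1 count over all 20 other libraries. How the counting treated strand is not stated in the labels, so reads of the overlapping pair cannot be told apart. Of 17 tested genes within 500 kb of TLX1, TLX1NB was the 1 gene higher than in each line. In a list of 16 genes of the locus, TLX1 included, 14 were tested, 5 were higher and 6 lower against the mean, and TLX1, TLX1NB and KAZALD1 were those that differed from each line. KAZALD1, which codes for a secreted growth-factor-binding protein, went the other way, with 1.64 ± 0.193 CPM in ALL-SIL and 2.45 ± 0.101 CPM in KARPAS-45, the nearest line (adjusted p = 0.00626). Besides TLX1 and TLX1NB, those higher against the mean were POLL, a DNA repair polymerase, DPCD and FBXW4. POLL averaged 26.2 ± 3.53 CPM in ALL-SIL, between LOUCY at 19.6 CPM and DND-41 at 29.9 CPM, while KARPAS-45, HPB-ALL and TALL-1 were below 1 CPM. MRPL43, LZTS2, PDZD7, BTRC and NPM3 were lower against the mean along with KAZALD1. TWNK, SEMA4G and SFXN3 were not called, FGF8 was too low to be tested, and LBX1 had no count in any line.

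The promoter of TLX1 from RefSeq (GRCh38.p14) is shown here to set it beside the promoters of genes that ALL-SIL did not express, printed further on. It covers 250 bases before and 50 bases after the RefSeq start at chr10:101131050-101131349 on the plus strand, with every CG in capitals. It holds 18 CG pairs at 59.0% GC, and the ratio of observed to expected CG is 0.76.
TLX1: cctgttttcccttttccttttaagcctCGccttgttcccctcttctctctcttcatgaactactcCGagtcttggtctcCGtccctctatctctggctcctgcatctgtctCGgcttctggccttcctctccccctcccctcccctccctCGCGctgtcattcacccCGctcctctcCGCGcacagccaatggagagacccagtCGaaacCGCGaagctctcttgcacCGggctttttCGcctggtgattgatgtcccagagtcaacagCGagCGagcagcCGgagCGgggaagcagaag

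The other 4 marks of the line, named from earlier results of these data, were each higher in ALL-SIL than in every other line, with no overlap between libraries. NRN1, which codes for neuritin, a neuronal membrane protein that promotes neurite growth, had 190, 183, 140 and 155 CPM in ALL-SIL, against a mean of 1.73 CPM in KARPAS-45, 0.00493 in HPB-ALL and no count in the other 3 lines. This was 96.8-fold over KARPAS-45 (log2 fold change 6.59 ± 0.19 SE, edgeR adjusted p = 1.49e-14). KIF1A, the motor protein that carries synaptic vesicle precursors along axons, had 82.7, 66.6, 42.3 and 86.4 CPM in ALL-SIL, against 0.124 CPM in KARPAS-45, 0.00453 in LOUCY and no count in the remaining 3 lines. Its nearest line, KARPAS-45, lay 562-fold lower.
H19, a maternally expressed imprinted noncoding RNA, had 1133, 991, 1424 and 820 CPM in ALL-SIL, against 120, 90.2, 77.6 and 27.8 CPM in DND-41, 1.7 CPM on average in LOUCY and 0.0368 in KARPAS-45. HPB-ALL and TALL-1 had no H19 count, and the ALL-SIL mean was 13.8-fold that of DND-41 (edgeR adjusted p = 1.65e-07).
EVPL, which codes for envoplakin, a protein of the cornified envelope of squamous epithelium, had 420, 383, 554 and 298 CPM in ALL-SIL, against 7.56 ± 0.660 CPM in KARPAS-45 and at most 0.232 CPM on average in the other 4 lines. It was 54.8-fold over KARPAS-45 (log2 fold change 5.77 ± 0.19 SE, edgeR adjusted p = 9.53e-19). In GRCh38, NRN1 lies at chr6:5997999-6007605, KIF1A at chr2:240713761-240821036, H19 at chr11:1995176-2001470 and EVPL at chr17:76004502-76027452, all on the minus strand. H19 and EVPL overlap other expressed genes, an unnamed locus and TEN1-CDK3.

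**Figure D1:**
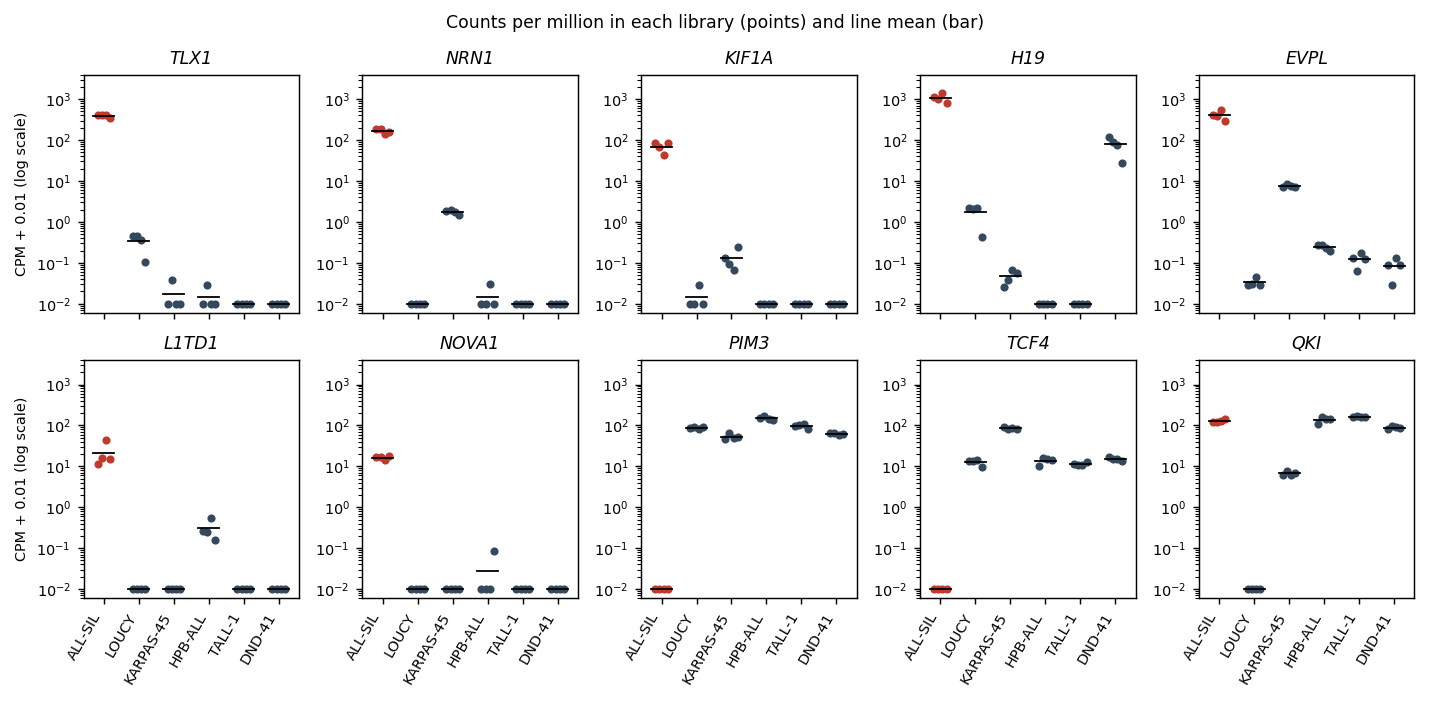
Level of 10 genes in each of the 24 libraries, as CPM + 0.01 on a log axis, with ALL-SIL in red at the left and a bar at each line's mean. TLX1, NRN1, KIF1A, H19, EVPL, L1TD1 and NOVA1 lie above all other libraries in ALL-SIL, PIM3 and TCF4 have no ALL-SIL count, and QKI lies among the lines that express it.

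By a rule based on distance from the nearest line, 19 protein-coding genes are described from 440 that qualified as higher. They include 4 of the 5 marks of the line, all but H19, which is not protein coding. NOVA1, a splicing regulator of neurons, had 16.5, 17.1, 14.0 and 17.4 CPM in ALL-SIL and 4 counts in HPB-ALL as the only others (adjusted p = 3.01e-09, the largest of the 5), although DESeq2 did not call it against each line. ST8SIA2, which adds polysialic acid to neural adhesion molecules, averaged 45.8 ± 8.71 CPM in ALL-SIL, against 7 counts in KARPAS-45 and none in the other 4 lines.
Several of the 19 act at the cell surface or outside the cell. The membrane mucin MUC4 averaged 119 ± 6.35 CPM in ALL-SIL and 0.177 CPM in DND-41, the nearest line, a 673-fold difference. MMP25, a membrane-anchored matrix metalloproteinase, averaged 182 ± 29.5 CPM in ALL-SIL and 0.307 CPM in LOUCY, a 593-fold difference, and overlaps MMP25-AS1 on the other strand. REG4, a secreted lectin known from the gut, averaged 71.6 ± 3.91 CPM in ALL-SIL and 1.46 CPM in TALL-1.
The chromatin reader SP140, known from immune cells, averaged 27.1 ± 1.71 CPM in ALL-SIL and 0.232 CPM in DND-41, and overlaps SP110. Less even between libraries were L1TD1, an RNA-binding protein of pluripotent cells, with 11.3, 16.3, 43.4 and 15.4 CPM in ALL-SIL, and CHDH, the choline dehydrogenase, with 26.8, 12.9, 10.4 and 7.05 CPM. The remaining genes of the 19 were H2AC25, POGLUT2, TMEM72, ANXA3, DEPP1, CACNA1D and AHRR. Their ALL-SIL means ran between 5.44 and 33.9 CPM and lay at least 17.3-fold above the nearest line, except that H2AC25, a histone gene with near-identical relatives and so of uncertain assignment, had 2 counts in DND-41 and, set against those counts over the 4 DND-41 libraries pooled, a ratio of 2140 with an exact Poisson 95% interval of 592 to 17700.

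Most other neuronal genes were silent or low in ALL-SIL. In a list of 28 neuronal and synaptic genes, 16 had no count in ALL-SIL, 13 were tested, 7 were higher and 1 lower against the mean (median log2 fold change 0.29), and NRN1 and KIF1A were the 2 higher than in each line. The vesicle, secretory and cytoskeletal genes SNAP25, CHGA, STMN2, GAP43, NEFL and DCX were at 0 in all 4 ALL-SIL libraries. SYT1, STX1A, ELAVL4, DLG4 and ENO2 made up the others higher against the mean, of which ENO2, a glycolytic enzyme, was at 119 ± 24.9 CPM in ALL-SIL and between 63.0 CPM in HPB-ALL and 140 CPM in TALL-1. MAPT, the microtubule protein tau, was also at 0 in ALL-SIL, against 11.7 CPM in HPB-ALL and 8.14 CPM in KARPAS-45. Among 22 genes of epithelial junctions and the plakin family, 11 had no ALL-SIL count, 12 were tested, and EVPL and PLEC were higher than in each line while DST was lower. PLEC, which codes for the cytoskeletal linker plectin, averaged 215 ± 55.7 CPM in ALL-SIL and 141 ± 33.2 CPM in TALL-1, and lost its call without TALL-1 replicate 2 or without ALL-SIL replicate 4. The EVPL partner PPL had 1 count in ALL-SIL, and the desmosome gene DSP had none. The desmosome and adherens junction gene JUP averaged 0.047 CPM in ALL-SIL and 287 CPM in LOUCY, and PKP4 was the 1 other list member above 2 CPM in ALL-SIL, at 47.7 ± 10.8 CPM. PKP3, PKP4 and OCLN were higher and JUP lower against the mean without differing from each line, and PKP4 turned to a log2 fold change of -1.17 without TALL-1 and OCLN to -0.04 without HPB-ALL and -0.02 without DND-41.
Of 20 imprinted genes, 9 were tested, 4 were higher and 3 lower against the mean. IGF2, the paternally expressed neighbour of H19, had no ALL-SIL count. KCNQ1OT1, an imprinted noncoding RNA of the same chromosome arm, was at 0 in ALL-SIL, against 1.82 CPM in KARPAS-45, the lowest, and 16.9 CPM in LOUCY, the highest, and was lower than in each line (largest adjusted p = 2.13e-11).

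ALL-SIL was also marked by genes it did not express. The rule for lower genes took 15 of 430 that qualified, each above 5 CPM on average in every other line. PIM3, a serine/threonine kinase induced by cytokines, had no count in any ALL-SIL library, against 87.9 ± 3.34 CPM in LOUCY, 53.5 ± 7.15 in KARPAS-45, 150.0 ± 14.1 in HPB-ALL, 96.6 ± 9.35 in TALL-1 and 62.2 ± 3.09 in DND-41. Its ALL-SIL level was thus at least 909-fold lower than that of KARPAS-45, the lowest of the others (largest edgeR adjusted p = 2.71e-21). The magnesium transporter gene SLC41A1 was at least 405-fold lower, the mitotic gene PIMREG at least 344-fold, CYB5A, which codes for cytochrome b5, at least 305-fold, and SLC15A4, a lysosomal peptide transporter, at least 268-fold.
TCF4, an E-protein transcription factor, had no ALL-SIL count and 12.8 CPM in LOUCY, 85.0 in KARPAS-45, 13.8 in HPB-ALL, 11.3 in TALL-1 and 15.3 in DND-41. PDK1, the kinase that restrains pyruvate dehydrogenase, and IFT27, a ciliary transport protein, were at 0 as well, as were TIGD2, SMIM30, ZNF518B and GTDC1. For these 7 genes the fall was at least 158-fold to at least 263-fold relative to the lowest other line. TP53BP2, PRXL2A and B4GALT6 had 1 count each. All 34 genes chosen by these rules kept their call against each line when any of the 24 libraries was left out. They were picked from these same data for their distance from every line, so this outcome is no independent support.

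**Figure D2:**
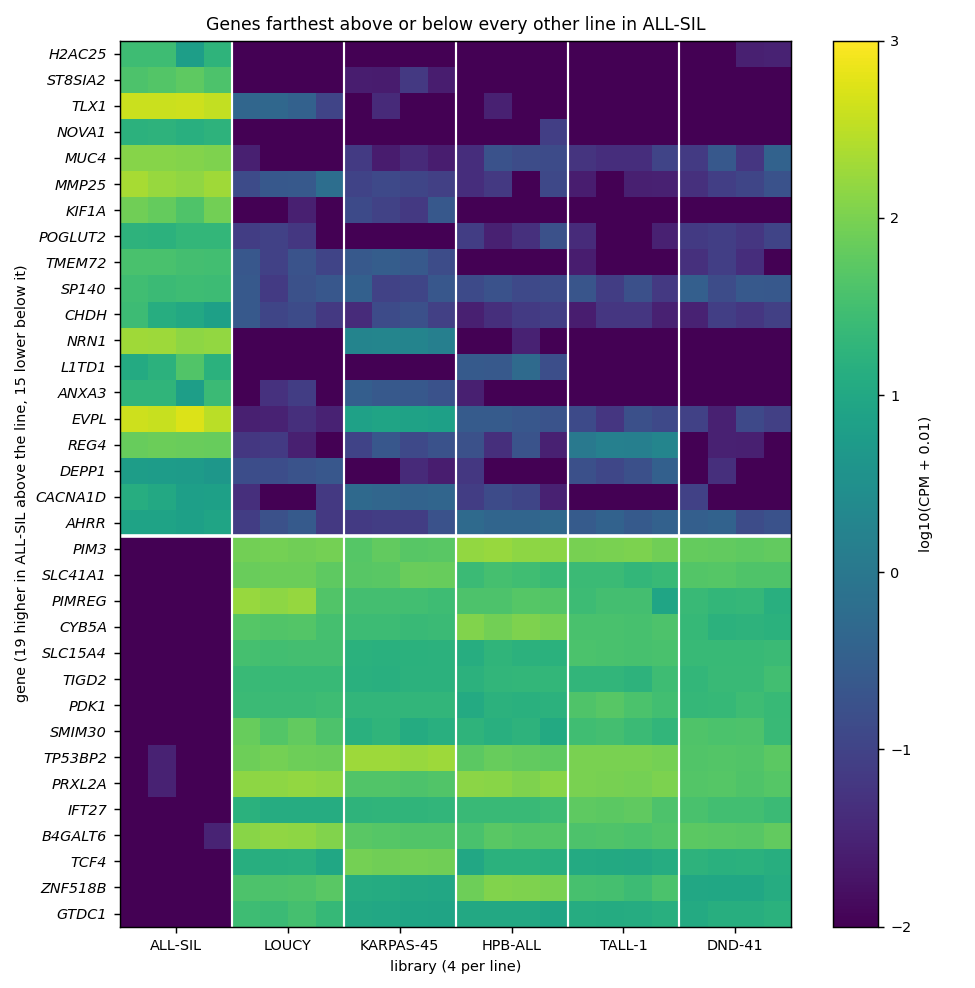
Level of the 19 higher genes (above the white line) and the 15 lower genes (below it) in all 24 libraries, 4 per line with ALL-SIL at the left, as log10(CPM + 0.01). ALL-SIL is bright where the other lines are dark in the upper part and dark where they are bright in the lower part, with TLX1 at 346 to 412 CPM and PIM3 at 0.

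A wider count, set after these values were seen, asked for genes with at most 3 counts in each library of a line and at least 5 CPM on average in every other line. ALL-SIL had 49 such genes on 18 chromosomes, 47 of them protein coding, against 18 in LOUCY, 39 in KARPAS-45, 24 in HPB-ALL, 51 in TALL-1 and 9 in DND-41. The reverse, at least 5 CPM in a line and at most 3 counts in each library of all others, held for 4 genes in ALL-SIL, among them H2AC25, TLX1NB and ENSG00000287118, against 66 in LOUCY, 39 in KARPAS-45, 40 in HPB-ALL, 6 in TALL-1 and 13 in DND-41. Named after their values were seen, the silent genes include MGMT, which removes alkyl groups from guanine in DNA, and IL6ST, which codes for the gp130 receptor subunit of the interleukin-6 family. MGMT had no ALL-SIL count, against 32.0 CPM in LOUCY, 16.6 in KARPAS-45, 8.77 in HPB-ALL, 15.4 in TALL-1 and 26.7 in DND-41. IL6ST had none in ALL-SIL either and between 8.72 CPM in DND-41 and 25.6 CPM in LOUCY. The noncanonical NF-kB subunit RELB had 2 counts in ALL-SIL, the tropomyosin gene TPM1 had none, and AUTS2, a developmental regulator, had 4.

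The promoters of PIM3 and MGMT follow as examples of silent genes with dense CG pairs, from RefSeq (GRCh38.p14), 250 bases before and 50 after the start, with every CG in capitals. PIM3 is read from chr22:49960522-49960821 on the plus strand and holds 56 CG pairs at 81.3% GC with an observed to expected ratio of 1.14. Its stretch also lies inside the GENCODE 29 span of the gene. MGMT is read from chr10:129466991-129467290 on the plus strand and holds 45 at 78.7% GC with a ratio of 1.06.
PIM3: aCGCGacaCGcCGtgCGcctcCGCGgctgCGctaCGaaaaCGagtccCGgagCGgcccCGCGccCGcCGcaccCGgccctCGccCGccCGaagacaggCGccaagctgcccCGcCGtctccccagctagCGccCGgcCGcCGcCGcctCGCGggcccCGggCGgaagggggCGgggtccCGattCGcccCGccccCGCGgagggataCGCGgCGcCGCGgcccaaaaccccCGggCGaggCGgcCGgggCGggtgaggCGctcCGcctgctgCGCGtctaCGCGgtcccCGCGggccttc
MGMT: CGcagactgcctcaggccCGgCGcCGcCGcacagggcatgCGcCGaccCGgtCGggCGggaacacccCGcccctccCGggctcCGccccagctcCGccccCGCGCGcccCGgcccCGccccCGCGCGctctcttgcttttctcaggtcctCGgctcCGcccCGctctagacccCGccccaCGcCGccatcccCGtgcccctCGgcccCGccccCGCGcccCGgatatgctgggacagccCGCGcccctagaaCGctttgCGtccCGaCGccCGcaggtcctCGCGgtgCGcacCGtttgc
Of the 47 silent protein-coding genes, 38 had a promoter in the table, with a median of 36 CG pairs in 300 bases. The number ran from 2 in SLC36A1 to 56 in PIM3, with 3 in TCF4 and 6 in PDK1. The 6604 promoters of genes at 5 CPM or more in all 6 lines had a median of 27, the 101 promoters of genes silent in just 1 of the other 5 lines also 27, and all 27305 promoters 14. A promoter was counted as CG-rich with over 50% GC and an observed to expected ratio over 0.6, which held for 89.5% of the silent set, 87.3% of genes on in all 6 lines, 76.2% of genes silent in another line and 46.8% of all. These are descriptions of sequence, and DNA methylation was not measured.

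Among 24 transcription factors known as T-ALL drivers, 19 were tested, 3 were higher and 2 lower against the mean (median log2 fold change -2.96), and TLX1 alone was higher than in each line. TLX3 had no count in ALL-SIL, against 224 CPM in HPB-ALL, 122 CPM in DND-41 and 0.0243 CPM in TALL-1. TAL1, LMO1, LMO3, MEF2C, MYCN, HOXA9, HOXA10, HOXA11 and MECOM were at 0 in ALL-SIL as well, and 14 of the 24 were at 0 in all. LMO2, SPI1, HHEX, HOXA13, TAL2 and TLX2 were each below 0.5 CPM in ALL-SIL, while LOUCY had 32.2 CPM of LMO2, 54.0 CPM of SPI1 and 175 CPM of HHEX. LYL1, a basic helix-loop-helix factor, had 24.4, 27.5, 21.9 and 19.5 CPM in ALL-SIL, second to the 279 CPM of LOUCY and above the 12.9 CPM of HPB-ALL. MYC had 243, 304, 555 and 136 CPM in ALL-SIL, with no call against KARPAS-45 (466 CPM), HPB-ALL (319) or DND-41 (414). MYB averaged 357 ± 79.5 CPM in ALL-SIL and lay within the 336 to 566 CPM of the other lines.
Of 11 genes that earlier work elsewhere tied to TLX1, 3 were higher and 7 lower against the mean, and RUNX1 and MAD2L1 were lower than in each line. RUNX1, a transcription factor of blood formation, had 34.8, 44.9, 48.1 and 49.7 CPM in ALL-SIL, all below the 80.3 ± 7.16 CPM of HPB-ALL, the nearest line, and the 355 CPM of KARPAS-45, the highest (log2 fold change to HPB-ALL -0.86 ± 0.14 SE, edgeR adjusted p = 5.73e-06). MAD2L1, which codes for a spindle checkpoint protein, averaged 71.6 ± 23.8 CPM in ALL-SIL and 137 ± 16.6 CPM in LOUCY. BCL11B, a T-cell commitment factor, averaged 115 ± 33.6 CPM in ALL-SIL and between 21.9 CPM in LOUCY and 366 CPM in KARPAS-45, and was not called against the mean. FHL1, a LIM protein, was higher against the mean with 34.4 ± 12.1 CPM in ALL-SIL, below LOUCY at 38.3 CPM and HPB-ALL at 54.7 CPM on average. ALDH1A1, a retinal dehydrogenase, had no ALL-SIL count and at most 0.208 CPM elsewhere. The checkpoint genes CHEK1, BUB1 and BUB3 were lower against the mean but not against each line. In a list of 19 early progenitor genes, 17 were tested and 0 differed from each line. Against the mean 2 were higher and 4 lower (median log2 fold change -3.32), beside 33.8% and 25.4% of all tested genes. No count was found in ALL-SIL for 8 of the 19. Against single lines, 0 were higher and 14 lower against LOUCY, 4 and 6 against KARPAS-45 and 2 and 8 against HPB-ALL. TALL-1 gave 3 and 1, and DND-41 1 and 3.

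ABL1 was high in ALL-SIL without being the highest of the lines. It had 299, 312, 368 and 334 CPM in ALL-SIL, against 484 CPM in KARPAS-45, 132 in HPB-ALL, 123 in TALL-1, 94.0 in LOUCY and 88.6 in DND-41. ALL-SIL was thus below KARPAS-45 (log2 fold change -0.56 ± 0.09 SE, edgeR adjusted p = 5.86e-06) and above the other 4 lines. NUP214 averaged 167 ± 38.2 CPM in ALL-SIL, against 252 CPM in LOUCY, 166 in KARPAS-45, 78.8 in HPB-ALL, 64.5 in TALL-1 and 48.1 in DND-41, and ALL-SIL did not differ detectably from KARPAS-45 (log2 difference 0.01 ± 0.12 SE, adjusted p = 0.987). Of 6 genes from ABL1 to NUP214, 5 were tested and 4 were higher against the mean, and of 9 genes on its flanks 2 of 8 tested were, POMT1 and FAM78A. LAMC3 was at 0.297 CPM in ALL-SIL and higher against the mean although KARPAS-45 had 6.78 CPM, and AIF1L and QRFP had 4 counts and 1 count. POMT1, a mannosyltransferase, averaged 76.3 ± 11.1 CPM in ALL-SIL and 59.3 CPM in KARPAS-45, and its call against each line (edgeR adjusted p = 0.037) was lost in 4 of 24 fits that left out a library and in 3 of 6 other fits. FIBCD1, which lies between ABL1 and NUP214 and codes for a chitin-binding receptor, had 3.85, 3.32, 2.9 and 52 CPM in ALL-SIL. Replicate 4 was also its highest library in LOUCY (0.545 CPM, the others at most 0.0181), in HPB-ALL (0.256 CPM, the others at 0), in TALL-1 (7.02 CPM, the others at most 1.2) and in DND-41 (0.7 CPM, the others at most 0.0513), but not in KARPAS-45. Its call rested on ALL-SIL replicate 4: without it the log2 fold change against the mean was 3.58 in place of 5.79, and the call against each line was lost, as it was without TALL-1 replicate 1, 2 or 3 and with DESeq2 or limma-voom. Gene counts do not tell fused from normal transcripts.

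Among genes known to respond to STAT5 and MAPK signalling, CISH and SOCS1 were high in ALL-SIL and DND-41 and lower in the other 4 lines. CISH, a STAT5-induced inhibitor of cytokine signalling, had 730, 709, 625 and 829 CPM in ALL-SIL, against 965 ± 156 CPM in DND-41 and between 2.07 and 4.67 CPM in the other 4 lines. SOCS1, a JAK inhibitor, had 181, 185, 170 and 148 CPM in ALL-SIL, against 189 ± 13.6 CPM in DND-41 and at most 20.2 CPM on average elsewhere. ALL-SIL was slightly lower than DND-41 for CISH (log2 fold change -0.42 ± 0.17 SE, edgeR adjusted p = 0.043), while the SOCS1 difference of -0.14 ± 0.14 SE was not called (adjusted p = 0.414).
Named after their values were seen, SOCS2 averaged 234 ± 20.5 CPM in ALL-SIL and 318 ± 59.1 CPM in DND-41 (adjusted p = 0.108), PIM1 415 ± 22.5 CPM in ALL-SIL and 855 ± 213 CPM in DND-41, and DUSP6, a phosphatase that switches off ERK, 552 ± 61.1 CPM in ALL-SIL and 975.2 ± 139 CPM in DND-41. OSM, the cytokine oncostatin M, averaged 29.8 ± 5.25 CPM in ALL-SIL and 177 ± 72.8 CPM in DND-41, and at most 3.95 CPM in the other lines. Other members of the list were low. PIM3 was at 0 in ALL-SIL, and the MAPK-responsive genes SPRY2 and ETV4 were at 0 too, ETV5 had 1 count, and EGR1 averaged 0.224 ± 0.0659 CPM in ALL-SIL and 1.65 ± 0.707 CPM in LOUCY, the nearest line (adjusted p = 1.22e-05). Over the 25 genes of the list, 10 were higher and 10 lower against the mean, and 0 were higher and 2, PIM3 and EGR1, lower than in each line. Tested against DND-41 alone, 3 were higher and 16 lower, against LOUCY 11 and 10, against KARPAS-45 11 and 12, against HPB-ALL 11 and 7, and against TALL-1 11 and 9. IL7R, the interleukin-7 receptor that also signals through STAT5, averaged 0.632 ± 0.442 CPM in ALL-SIL, against 639 CPM in DND-41, 308 CPM in HPB-ALL and 0.177 CPM in KARPAS-45.

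**Figure D3:**
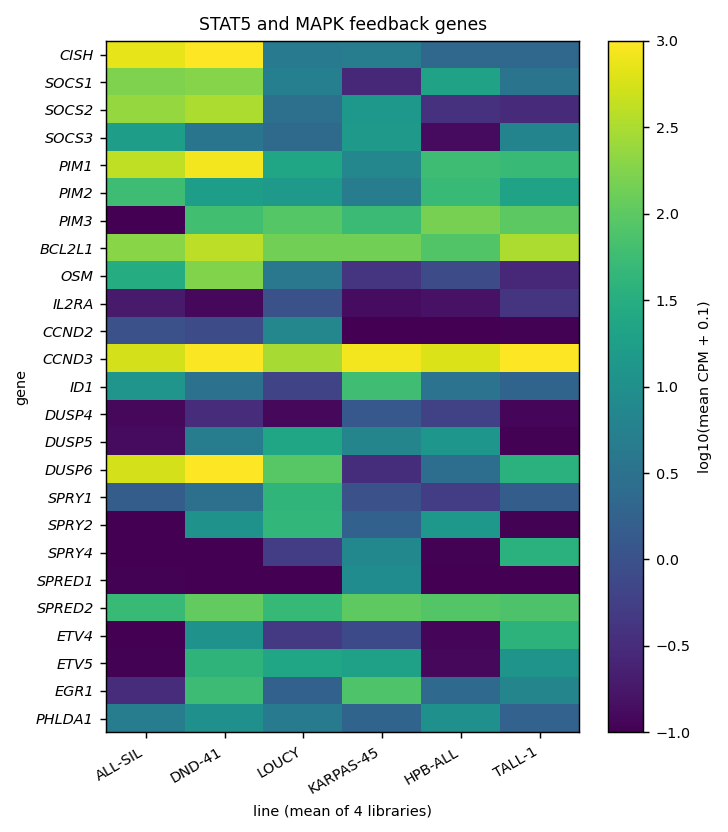
Mean level of the 25 STAT5 and MAPK feedback genes in each line, as log10(mean CPM + 0.1) over 4 libraries, with ALL-SIL in the left column and DND-41 next to it. CISH, SOCS1, SOCS2, PIM1 and DUSP6 are bright in these 2 lines, while PIM3 is dark in ALL-SIL only.

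The T-cell identity of the line was checked on 15 T-cell markers, of which 14 were over 1 CPM in ALL-SIL. CD3E averaged 696 ± 70.3 CPM, CD7 787 ± 98.0 CPM and TCF7 720 ± 174 CPM in ALL-SIL, whereas TRAC, the receptor alpha constant segment, had 20 counts over the 4 libraries and CD2 averaged 1.18 CPM. Summed B-cell markers were between 37.3 and 57.8 CPM in ALL-SIL libraries, of which CD79A made 40.4 CPM on average, and between 1.44 and 2095 CPM in the others. Myeloid markers summed to 0.653 to 1.39 CPM in ALL-SIL against 0.566 to 109 CPM elsewhere, with 6 of 12 at 0, and erythroid and megakaryocyte markers to 0.347 to 0.667 CPM in ALL-SIL against 0.177 to 126 CPM. Of the natural killer markers, which summed to 291 to 394 CPM in ALL-SIL against 4.84 to 243 CPM, 5 of 10 were at 0, and NKG7, a cytotoxic granule protein also found in T cells, carried the sum with 394, 362, 291 and 386 CPM in ALL-SIL and 101 ± 8.59 CPM in LOUCY, the nearest line. Fibroblast and epithelial markers summed to 12.9 to 17.6 CPM in ALL-SIL against 0.286 to 34.6 CPM, nearly all from PDGFRB at 15.2 CPM. In such bulk samples a smaller share of expressing cells and less RNA per cell cannot be told apart.

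Among 35 transcription factors of the T lineage, all tested, 13 were higher and 9 lower against the mean (median log2 fold change 0.25). This was near the 33.8% and 25.4% of all tested genes. Against single lines, 8 were higher and 18 lower against LOUCY, 16 and 12 against KARPAS-45 and 11 and 16 against HPB-ALL. TALL-1 gave 11 and 12, and DND-41 14 and 10. ID3 was higher while TCF4, RUNX1, BCL11A and TOX2 were lower than in each line. ID3, an inhibitor of E proteins, had 46.5, 48.1, 91.7 and 43.0 CPM in ALL-SIL, against 25.9 ± 2.99 CPM in KARPAS-45, the nearest line (log2 fold change 1.15 ± 0.29 SE, edgeR adjusted p = 0.0011). BCL11A had 1 count in ALL-SIL, and the line means elsewhere ran between 0.0739 CPM in KARPAS-45 and 71.3 CPM in TALL-1. TCF7, a WNT-pathway factor of early T cells, was below KARPAS-45, HPB-ALL and TALL-1 and above LOUCY and DND-41. IKZF3, known from mature lymphocytes, averaged 66.5 ± 4.01 CPM in ALL-SIL, second to the 209 CPM of HPB-ALL.
Of 28 antigens used to stage thymocytes, 27 were tested, 10 were higher and 8 lower against the mean (median log2 fold change 0.02). The single lines differed, with 3 higher and 21 lower against HPB-ALL and 9 and 14 against DND-41. LOUCY gave 13 and 9, KARPAS-45 14 and 11, and TALL-1 12 and 13. CCR4, a chemokine receptor of mature helper T cells and skin homing, was higher than in each line, with 160.0, 191, 140 and 71.6 CPM in ALL-SIL against 42.9 ± 12.1 CPM in HPB-ALL (adjusted p = 1.02e-06). CD69, an early activation antigen, had no ALL-SIL count, against 1.76 CPM in HPB-ALL and 61.1 CPM in LOUCY, and CD1C and ITGAE were the other 2 lower than in each line. The coreceptor CD4 averaged 162 ± 11.9 CPM in ALL-SIL, second to HPB-ALL with 473 CPM, and CD8A averaged 82.3 ± 12.9 CPM in ALL-SIL, behind KARPAS-45 with 521 CPM and HPB-ALL with 311 CPM. Its partner CD8B stayed at 3.04 ± 0.725 CPM, against 625 CPM in KARPAS-45 and 386 CPM in HPB-ALL. Of the cortical antigens, CD1A was lower against the mean, at 7.2 ± 3.4 CPM in ALL-SIL, against 350 CPM in HPB-ALL, between 37.3 and 83.6 CPM in DND-41, KARPAS-45 and TALL-1, and 0.419 CPM in LOUCY. CD1E averaged 2.27 ± 2.36 CPM in ALL-SIL, against 1134 CPM in HPB-ALL, 59.1 in DND-41, 10.5 in KARPAS-45, 3.41 in TALL-1 and none in LOUCY, and was not called against the mean. CD5, CD6, CD7, CD4, CD8A, CD27, CD52, CCR4, CCR7 and CCR9 were the 10 higher against the mean, with CD5 at 137 ± 19.5 CPM in ALL-SIL and between 0.298 CPM in DND-41 and 264 CPM in HPB-ALL. Of these, CCR9 turned to a log2 fold change of -0.97 without LOUCY. CXCR4, a chemokine receptor that holds thymocytes and leukaemia cells in their niche, averaged 212 ± 29.6 CPM in ALL-SIL and was lower against the mean. S1PR1, which lets T cells leave the thymus, averaged 0.139 CPM in ALL-SIL, and IL2RA 0.0978 CPM. CD1B, CD1D, CD28, CD38 and CD44 lay between 2.99 and 62.6 CPM in ALL-SIL without a call against the mean. CD99 is listed under a pair of identifiers and was not read.
The 11 genes of V(D)J recombination and the pre-T receptor had 3 members higher and 4 lower against the mean and 0 called against each line, where over all tested genes 5.22% were higher and 5.3% lower. RAG1, a subunit of the recombinase, averaged 3.3 ± 0.11 CPM in ALL-SIL and 750 CPM in DND-41, the highest line. In TALL-1, no library had over 0.175 CPM of RAG1. Its partner RAG2 averaged 1.1 ± 0.571 CPM in ALL-SIL and 127 CPM in DND-41, with no count in TALL-1. DNTT, which adds nucleotides at the joints, averaged 11.4 ± 6.68 CPM in ALL-SIL, 264 CPM in TALL-1 and at most 0.0195 CPM in any LOUCY library. It was higher against the mean (log2 fold change 1.26), but at -0.91 without LOUCY. PTCRA, the pre-T alpha chain, had 1.43, 1.21, 0.529 and 0.871 CPM in ALL-SIL and averaged 104 CPM in TALL-1. No LOUCY library had over 0.214 CPM of PTCRA and no DND-41 library over 0.12 CPM. The remaining 7, DCLRE1C, LIG4, XRCC4, XRCC5, XRCC6, PRKDC and NHEJ1, are repair factors and were above 6 CPM in ALL-SIL.
Of 26 CD3 and proximal signalling genes, 13 were higher and 2 lower against the mean (median log2 fold change 0.36), beside 33.8% and 25.4% of all tested genes. Against single lines, 11 were higher and 9 lower against LOUCY, 13 and 6 against KARPAS-45 and 12 and 7 against HPB-ALL. TALL-1 gave 11 and 7, and DND-41 16 and 6. LAT and UBASH3A were higher than in each line. LAT, the membrane adaptor that links the receptor to downstream signalling, averaged 6.8 ± 0.857 CPM in ALL-SIL and 2.56 ± 0.66 CPM in TALL-1, the nearest line. UBASH3A, a negative regulator of receptor signalling, averaged 61.8 ± 0.457 CPM in ALL-SIL and 44.7 ± 8.36 CPM in DND-41 (adjusted p = 0.00181). TXK, a TEC-family kinase, averaged 8.69 ± 3.56 CPM in ALL-SIL and 7.13 ± 1.54 CPM in LOUCY, and was not called against that line (adjusted p = 0.355).

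ALL-SIL held T-cell receptor delta and gamma constant transcripts, lower TRBC2 than each other line and hardly any alpha. TRDC, the delta constant segment, had 426, 500.0, 539 and 297 CPM in ALL-SIL, against 1224 ± 78.0 CPM in LOUCY, 158 ± 34.8 in DND-41, 1 count in HPB-ALL and none in KARPAS-45 and TALL-1. TRGC2, a gamma constant segment, had 398, 457, 392.5 and 368 CPM in ALL-SIL, close to the 345 CPM of KARPAS-45 and 295 CPM of HPB-ALL, while TRGC1 had 4 counts. ALL-SIL was thus second to LOUCY for TRDC and first, without passing against each line, for TRGC2 (largest adjusted p = 0.423).
TRBC2, a beta constant segment, had 130, 159, 142 and 114 CPM in ALL-SIL and was lower than in each line, the nearest being DND-41 at 247 ± 23.8 CPM (adjusted p = 0.0003) and the highest HPB-ALL at 2590 CPM. TRBC1 averaged 7.75 CPM in ALL-SIL, 1193 CPM in DND-41 and at most 0.217 CPM in each remaining line. ALL-SIL was thus second to DND-41 for TRBC1 and higher against the mean (log2 fold change 3.51). TRAC had 0.037, 0.0398, 0.0548 and 0.283 CPM in ALL-SIL, near the 0.0273 CPM of DND-41, whereas LOUCY, KARPAS-45, HPB-ALL and TALL-1 had between 97.7 and 1109 CPM. The 60 alpha joining segments summed to 0 CPM in ALL-SIL.
Variable and joining segments are properties of a clone, and 8 of them were higher in ALL-SIL than in each line, beside 5.22% of all tested genes. Over 1 CPM in ALL-SIL were 2 of 54 alpha, 7 of 67 beta, 1 of 3 delta and 6 of 12 gamma variable segments. Of joining segments, 0 of 60 alpha, 3 of 14 beta, 2 of 4 delta and 0 of 2 gamma were. TRGV7 averaged 124 ± 10.2 CPM in ALL-SIL and 2.96 CPM in DND-41, and TRBV7-9 30.2 ± 5.16 CPM in ALL-SIL and 0.0508 CPM in TALL-1. TRGV9 averaged 37.4 ± 5.87 CPM in ALL-SIL and 17.4 CPM in LOUCY, and TRGV5P, a pseudogene, 11.96 ± 1.58 CPM in ALL-SIL and 3.61 CPM in TALL-1. TRDV2 averaged 7.07 ± 1.32 CPM in ALL-SIL and 0.0297 CPM in LOUCY, and TRAV30 8.78 ± 2.85 CPM in ALL-SIL and 3.43 CPM in DND-41. TRGV6 and TRDJ2 were below 3 CPM. Gamma segments resemble each other closely, so reads may be split among them.

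**Figure D4:**
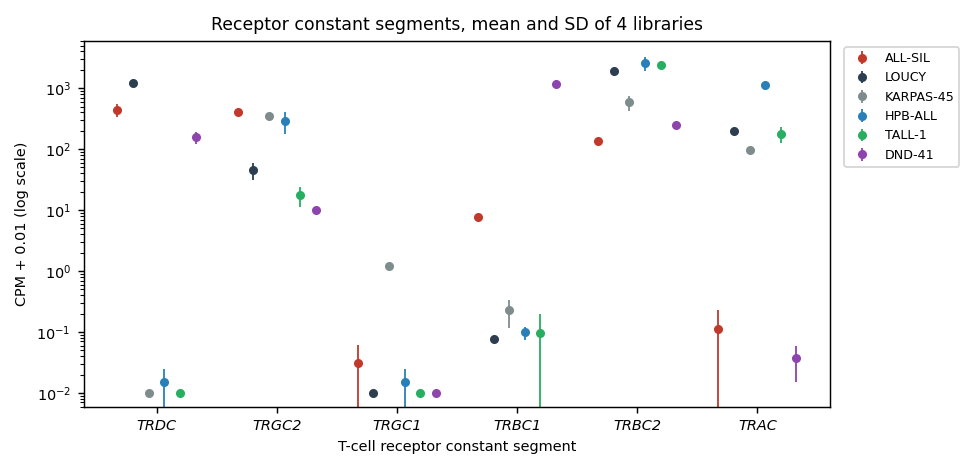
Mean level of 6 T-cell receptor constant segments in each line, as CPM + 0.01 on a log axis, ALL-SIL in red first, with error bars of 1 SD over 4 libraries that are cut where they reach the bottom of the axis. ALL-SIL has high TRDC (440 CPM) and TRGC2 (404 CPM), lower TRBC2 (136 CPM) than each other line, and TRAC near the floor.

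Several tumour suppressor genes of T-ALL were low or silent in ALL-SIL. Of 22, all tested, 5 were higher and 8 lower against the mean, and CDKN2A, MTAP, RB1, RUNX1 and SUZ12 were lower than in each line. CDKN2A, which codes for p16 and p14ARF, had 2 counts in ALL-SIL, both in replicate 4, against 14.9 CPM in KARPAS-45, the lowest, and 220 CPM in DND-41, the highest. It overlaps CDKN2B-AS1, which had no ALL-SIL count. MTAP, a methylthioadenosine phosphorylase gene that neighbours CDKN2A, had 5.89, 7.12, 8.65 and 4.4 CPM in ALL-SIL, against 59.6 ± 2.36 CPM in LOUCY and 124 CPM in KARPAS-45 (log2 fold change to LOUCY -3.19 ± 0.19 SE, edgeR adjusted p = 2.89e-13).
RB1 averaged 58.0 ± 11.1 CPM in ALL-SIL and 106 ± 5.11 CPM in DND-41, and SUZ12, a polycomb subunit, 118 ± 23.04 CPM in ALL-SIL and 166 ± 12.2 CPM in TALL-1. USP7, a deubiquitinase, was the 1 member higher than in each line, with 340 ± 60.2 CPM in ALL-SIL and 200 ± 18.2 CPM in TALL-1 (log2 fold change 0.77 ± 0.12 SE, adjusted p = 8.67e-06). EZH2, WT1, DNM2 and CNOT3 were the other 4 higher against the mean, and ETV6, PTPN2 and NF1 the other 3 lower. EZH2, the polycomb methyltransferase, averaged 145 ± 18.6 CPM in ALL-SIL and 0.0386 CPM in LOUCY, with the other 4 lines between 134 and 384 CPM, and without LOUCY its log2 fold change was -0.42. CDKN1B, PHF6, FBXW7, LEF1, EED, CYLD and KMT2D lay between 28.7 and 520 CPM in ALL-SIL and were not called against the mean. CDKN2B had no ALL-SIL count, nor any in KARPAS-45, HPB-ALL or TALL-1.

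Among NOTCH receptors and targets, 11 of 22 tested were higher and 4 lower against the mean (median log2 fold change 0.55), but 0 were higher than in each line. More members were lower than higher against KARPAS-45 (5 higher, 11 lower), HPB-ALL (6 and 11) and DND-41 (7 and 9), and the reverse held against LOUCY (13 and 8) and TALL-1 (11 and 9). NOTCH1 averaged 695 ± 216 CPM in ALL-SIL and 886 CPM in KARPAS-45, and NOTCH3 196 ± 43.9 CPM in ALL-SIL and 1070 CPM in KARPAS-45. NOTCH3 counted as higher against the mean through LOUCY, which had 0.158 CPM, and had a log2 fold change of -1.56 without that line, where DTX1, a NOTCH target, turned to -0.19. The target genes HES4 and HES6 were the 2 lower than in each line, HES4 with no ALL-SIL count against 7.52 CPM in KARPAS-45 and 245 CPM in TALL-1, and HES6 with 1 count.

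Receptors for migration and adhesion were mostly higher in ALL-SIL against the mean, though near even against LOUCY (10 higher, 9 lower), with 15 of 23 tested higher and 4 lower against the mean and a median log2 fold change of 1.29, beside -0.01 over all genes. ITGAL, the alpha chain of the leukocyte integrin LFA-1, had 1573, 1517, 1760 and 1616 CPM in ALL-SIL, against 229 CPM in TALL-1, 228 in KARPAS-45, 73.7 in LOUCY, 33.0 in HPB-ALL and 12.4 in DND-41. Its ALL-SIL mean was 7.04-fold that of TALL-1 (largest adjusted p = 8.14e-11). SELPLG, the ligand of P-selectin, averaged 218 ± 10.6 CPM in ALL-SIL and 97.3 ± 12.2 CPM in DND-41, and the chemokine receptor CXCR6 4.84 ± 2.32 CPM in ALL-SIL and 0.365 CPM in KARPAS-45. CCR4 was the 4th gene of this list higher than in each line.
Of 25 interferon response genes, 20 were higher and 2 lower in ALL-SIL against the mean, with a median log2 fold change of 0.89, but not against every line. Against DND-41 alone 4 were higher and 9 lower, and against TALL-1 10 and 6, while KARPAS-45 gave 19 and 4, HPB-ALL 15 and 3, and LOUCY 14 and 6. MX2, IFITM1, IFITM3 and BST2 were higher than in each line, with IFITM1, a membrane protein that restricts viral entry, at 502 ± 33.7 CPM in ALL-SIL and 308 CPM in DND-41. IFITM1 and IFITM3 are close relatives, so reads may be shared. USP18 and ISG15 went the other way. USP18, the enzyme that removes ISG15 from proteins, had 0.296, 0.378, 0.584 and 0.631 CPM in ALL-SIL and 4.08 ± 0.278 CPM in TALL-1, the nearest line (adjusted p = 1.03e-11), and ISG15 averaged 17.1 ± 4.53 CPM in ALL-SIL and 27.1 ± 6.84 CPM in TALL-1, a call (adjusted p = 0.0363) that held in 18 of 24 fits that each left out a library.
For MHC class I and II genes, 8 of 15 tested were higher and 0 lower against the mean, and 0 differed from each line. The single lines differed in direction, with 11 higher and 0 lower against KARPAS-45 and 12 and 0 against TALL-1, but 2 and 10 against LOUCY, 3 and 7 against HPB-ALL, and 4 and 3 against DND-41.

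Of 16 drug handling genes of leukaemia treatment, 5 were higher and 5 lower against the mean, beside 33.8% and 25.4% of all tested genes. Of the 16, 2 were higher and 1 lower than in each line. SAMHD1, which hydrolyses deoxynucleotides and the active form of cytarabine, had 27.3, 18.4, 24.1 and 20.4 CPM in ALL-SIL, against at most 1.58 ± 0.115 CPM, in HPB-ALL (log2 fold change 3.84 ± 0.19 SE, edgeR adjusted p = 6.92e-15). ASNS, asparagine synthetase, was also higher than in each line at a low level, 1.05 ± 0.29 CPM in ALL-SIL and 0.525 CPM in DND-41, a call lost without ALL-SIL replicate 1. ABCC4, an efflux pump lower than in each line, had no ALL-SIL count. TPMT, which methylates thiopurines, was lower against the mean, with 7.35 ± 3.78 CPM in ALL-SIL and 36.1 CPM in KARPAS-45, without differing from LOUCY at 8.49 CPM (adjusted p = 0.441). Of the BCL2 family, 7 of 15 tested were higher and 2 lower against the mean, but 5 and 6 against LOUCY and 3 and 5 against DND-41. BMF, a BH3-only death factor named after its values were seen, was the 1 higher than in each line, although ALL-SIL replicate 3 with 89.9 CPM, beside 278, 209 and 330 CPM, overlapped HPB-ALL.

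The direction of cell cycle genes depended on the line compared. Of 28 G2 and M phase genes, 1 was higher and 15 lower against the mean (median log2 fold change -0.51), and of 28 S phase genes 5 were higher and 10 lower (-0.19). Against single lines, the G2 and M phase counts were 1 higher and 22 lower against KARPAS-45, 0 and 16 against TALL-1 and 4 and 12 against LOUCY, but 5 and 4 against HPB-ALL and 4 and 4 against DND-41. The S phase counts were 1 higher and 24 lower against KARPAS-45, 2 and 8 against TALL-1 and 6 and 7 against LOUCY, but 11 and 7 against HPB-ALL and 9 and 2 against DND-41. GINS1, a replication helicase subunit, MAD2L1 and the checkpoint kinase TTK were lower than in each line, as was HJURP, whose call held in 13 of 24 fits that each left out a library. TTK lost its call without HPB-ALL replicate 4 or ALL-SIL replicate 1. Growth rate was not measured, and its part in these differences was not tested. Of 21 cholesterol synthesis genes, 6 were higher and 6 lower against the mean, near the 33.8% and 25.4% of all tested genes. Against LOUCY 1 was higher and 13 lower, against TALL-1 1 and 10 and against KARPAS-45 5 and 10, whereas against HPB-ALL 9 were higher and 4 lower and against DND-41 6 and 3. HSD17B7, at 11.5 ± 1.02 CPM in ALL-SIL and 16.4 CPM in HPB-ALL, was the 1 lower than in each line.
Of the 13 mitochondrially encoded messenger RNAs, 12 were higher against the mean and 9 higher than in each line. MT-ND3, a complex I subunit, had 522, 1873, 1654 and 1543 CPM in ALL-SIL, against 284 ± 87.6 CPM in TALL-1, the nearest line, with ALL-SIL replicate 1 well below the other 3. MT-CO1 averaged 17050 ± 2404 CPM in ALL-SIL and 25190 ± 3616 CPM in LOUCY and was not called. All mitochondrially encoded genes together took 6.56% to 8.89% of counts in ALL-SIL and 0.671% to 9.49% in the other libraries. Nuclear copies of these genes make their counts uncertain, and the calls of MT-CO2 and MT-ND4 were lost in 17 and 7 of 24 fits that each left out a library.

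QKI was expressed in ALL-SIL at 123, 119, 130 and 146 CPM. In descending order, TALL-1 had 162 ± 4.24 CPM, HPB-ALL 137 ± 19.7, ALL-SIL 130 ± 11.6, DND-41 88.0 ± 5.54 and KARPAS-45 6.71 ± 0.776 CPM, and LOUCY had no count. ALL-SIL was lower than TALL-1 (log2 fold change -0.32 ± 0.11 SE, edgeR adjusted p = 0.0167) and higher than DND-41 (0.56 ± 0.11 SE, adjusted p = 0.000168), while the difference from HPB-ALL of -0.08 ± 0.11 SE was not called (adjusted p = 0.531). Of 26 tested splicing regulators, 8 were higher and 3 lower against the mean, beside 33.8% and 25.4% of all tested genes, but 5 and 15 against KARPAS-45. NOVA1 was the 1 that differed from each line. The QKI relatives KHDRBS2 and KHDRBS3 had no ALL-SIL count, KHDRBS1 averaged 503 ± 72.2 CPM and SF1 316 ± 43.9 CPM in ALL-SIL.

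Some higher and lower genes lay close together. Of 35 tested genes within 500 kb of EVPL, 17 were higher in ALL-SIL than in each line, and of 46 near MMP25, 16 were, while NRN1 with 2 and KIF1A with 14 tested neighbours had none. A summary by position, added after these values were seen, took 7793 autosomal genes with at least 5 CPM in all 6 lines, of which 4.6% were higher and 6.4% lower in ALL-SIL than in each line. On chromosome 8, 59 of 274 such genes (21.5%) were higher, with a median log2 fold change against the mean of 0.44. Against KARPAS-45 alone the chromosome 8 median was 0.11, and against the remaining lines it was between 0.39 and 0.52. On chromosome 2, 89 of 541 such genes (16.5%) were lower, with a median against the mean of -0.33.
Cut into 146 runs of at least 50 neighbouring genes, 7 runs had a median above 0.3 and 6 a median below -0.3 against each of the 5 lines. The lowest was the end of the short arm of chromosome 17, RFLNB to NUP88 at chr17:439978-5420160, with a median log2 fold change of -0.97 (between -1.26 and -0.7 against single lines) and 27 of 52 genes lower than in each line. At the other end of chromosome 17, NAT9 to ENGASE at chr17:74770547-79088599, which holds EVPL, had a median of 0.63 with 13 of 51 genes higher, and the next run to B3GNTL1 had 0.62. The first 2 runs of chromosome 16, the second of which spans AMDHD2 to GSPT1 at chr16:2520357-11916082 and holds MMP25 and USP7, had medians of 0.8 and 0.86. The last run of chromosome 8, SLA to C8orf33, had a median of 0.74 with 22 of 54 genes higher, and single runs on chromosomes 6 and 19 had 0.41 and 0.48. The other 5 lower runs were on chromosome 2 (4 runs, -0.44 to -0.69) and chromosome 5 (-0.56). Medians of neighbouring genes are gene expression, and DNA copy number was not measured.

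**Figure D5:**
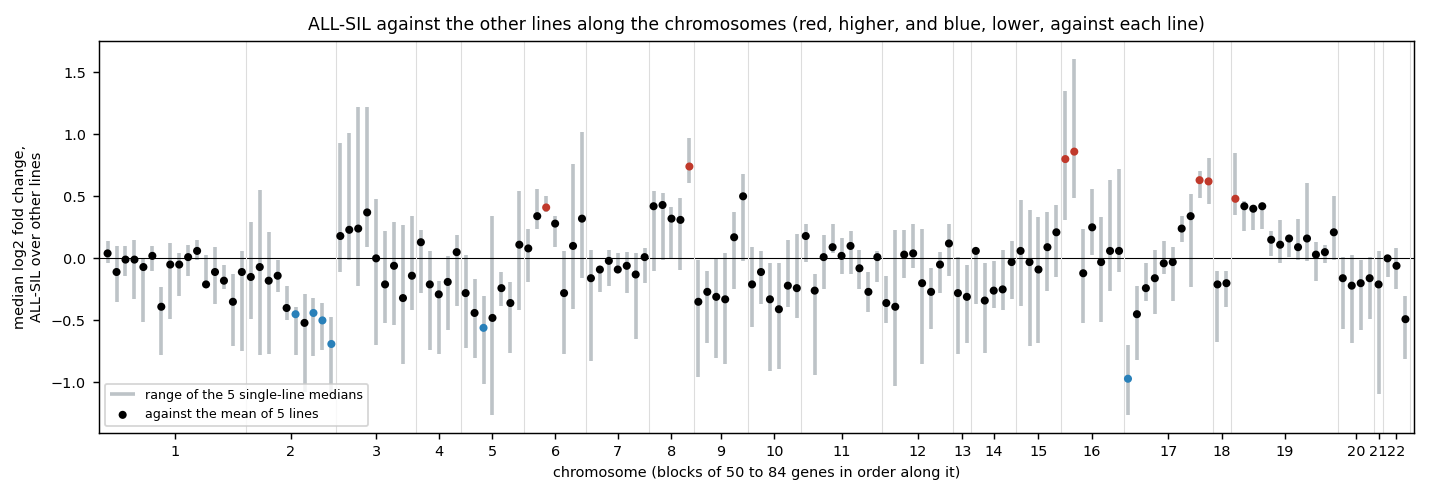
Median log2 fold change of ALL-SIL against the mean of the 5 other lines in 146 runs of neighbouring genes along the autosomes (dots), with the range of the 5 single-line medians in grey. The 7 runs above 0.3 against every line are red and the 6 below -0.3 are blue, the lowest being the start of chromosome 17 at -0.97.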

How the data were processed

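RNA of 24 untreated libraries, 4 for each of 6 T-ALL lines, was analysed from the raw read counts per gene that the authors deposited. Per the submitters' processing notes, Trimmomatic 0.39 and STAR 2.7.11b were used with the GRCh38 genome, while the counting tool, its annotation and its strand setting are not stated. Of 62754 gene identifiers, 62700 matched a symbol and 58261 a GENCODE 29 position. LOUCY has 2 columns with the same replicate number, called libraries a and b here.

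Counts were filtered with filterByExpr, scaled by TMM and fitted with edgeR 4.0.16 (R 4.3.3, limma 3.58.1) over all 6 lines. The edgeR quasi-likelihood test gave ALL-SIL minus the mean of the 5 other lines and 5 single contrasts, each adjusted by Benjamini-Hochberg over all tested genes. CPM values use TMM-adjusted library sizes, and 3 counts correspond to 0.0518 to 0.0665 CPM in the ALL-SIL libraries before that adjustment. No ALL-SIL library repeated another within sampling noise. The fit was tested on simulated data.

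The members and lists were chosen with earlier results of these data known. Named genes are the 5 marks of the line, 19 of the 20 protein-coding genes farthest above their nearest line (mean ALL-SIL level at least 5 CPM) and the 15 farthest below (every other line at least 5 CPM), each called against each line with no overlap of libraries. Some genes are not reported here: they stayed in every fit and were left out of the lists and their counts. Genes outside the rule, among them SOCS2, PIM1, DUSP6, OSM, MGMT, IL6ST, NKG7, the members shown as examples of lists and the gene runs along chromosomes, were chosen after their values were seen. Alternatives were RLE scaling, no filter, DESeq2 1.42.0, limma-voom, a minimum fold of 1.5, a replicate block, leaving out each library or line, lines in 10% serum only, and library sizes without mitochondrial and histone genes.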

Additional observations from a re-analysis of the deposited data

Results flagged for a closer look

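Of 26 sets of 4 ALL-SIL values checked for a library standing apart, gene levels and library measures together, 2 were past Dixon's 95% critical value for 4 samples, and chance flags about 1 in 20 groups. TLX1 had 346 CPM in ALL-SIL replicate 4 beside 402 to 412 CPM, with a gap of 0.836 of the range. L1TD1 had 43.4 CPM in ALL-SIL replicate 3 beside 11.3 to 16.3 CPM, with a gap of 0.845 of the range. Both genes stayed higher than in each other line when any of the 24 libraries was left out, and what sets these libraries apart was not tested.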

How the results depend on the processing

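The main counts were 6870 genes higher and 5176 lower against the mean, and 1062 higher and 1078 lower than in each line. Leaving out each of the 24 libraries gave 6286 to 7171, 4692 to 5382, 871 to 1152 and 976 to 1127. A minimum fold of 1.5 gave 3964, 2523, 492 and 555, as its stricter null requires fewer. With lines in 10% serum only, 3 lines had to differ in place of 5, and 1765 genes were higher and 1822 lower than in each. DESeq2 gave 6756, 6594, 1032 and 1144, and limma-voom 6784, 7247, 1105 and 1073, so that more genes were lower than higher. Without a filter, the median log2 fold change of all genes moved to -0.283. All 34 genes chosen by distance from the nearest line kept their call against each line in every alternative, except NOVA1 with DESeq2. Their choice by that distance in the same data all but fixed this outcome.

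Directions against the mean turned with the lines averaged. Without LOUCY, the log2 fold change was -1.56 for NOTCH3, -0.97 for CCR9, -0.91 for DNTT, -0.19 for DTX1 and -0.42 for EZH2. Without KARPAS-45 it was 0.1 for XRCC5 and -0.83 for SC5D, without HPB-ALL -0.04 for OCLN, without TALL-1 -1.17 for PKP4, and without DND-41 -0.02 for OCLN. In 10% serum only it was 0.11 for PTCRA, -0.23 for BCL2, -0.06 for BCL2L2 and -0.92 for SC5D. The cause was not tested beyond the line left out. Of 89 named genes called against each line, 80 kept the call without any library.

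The labels do not say that a replicate number marks a shared batch. Deviations from line means of ALL-SIL and same-numbered libraries of other lines correlated at -0.216 to 0.544 (median 0.141, above 0.1 in 10 of 18 pairs), against a median of -0.066 and 12 of 54 for different numbers, and 3 of 4 ALL-SIL libraries correlated more with their own number. This is a hint from the data, not the design, that holds for some pairs and not all. A replicate block on the numbered libraries gave 7035, 5351, 1093 and 1104 calls.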
